A study of Mus musculus with 14 samples.

Results

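The wildtype cultures of this series gave 6 of its 14 libraries, chosen by the genotype in their titles, and each library held the polyadenylated RNA of 1 dentate gyrus cut with a scalpel from a mouse slice culture. The mice were C57BL/6J with both App alleles intact (APP+/+). Slices of hippocampus with attached entorhinal cortex came from pups on postnatal day 4 or 5, and they stayed at least 18 days in medium with horse serum before dissection. The isolate keeps whatever borders the dentate gyrus at the cut, and no cell type was sorted. APPko libraries enter nothing below. The values describe which genes these cultures expressed, at which level, and how far 1 culture differed from the next.

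The dentate gyrus is the entry station of the hippocampus. Its granule cells receive fibres from the entorhinal cortex and send mossy fibres to hilar mossy cells and to CA3 pyramidal cells, while GABAergic interneurons of the hilus and molecular layer restrain them. An organotypic culture keeps this layered circuit and its glia, but it has no blood flow. Dividing progenitors at the inner border of the granule cell layer make new granule cells in the intact animal.

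Total counts ran from 16686909 to 29713323 per library, with a median of 21422400. Counts were scaled by edgeR's TMM method to counts per 1000000 (CPM), and levels of different genes are compared as CPM per kilobase (kb) of exon. Mitochondrially encoded genes took 5.25% to 7.34% of the counts and ribosomal protein genes 2.00% to 3.25%. Over the 16889 genes kept by edgeR's filter on low counts, the log2 CPM of any 2 libraries correlated with Pearson's r of 0.956 to 0.984. This covers 15 pairs and is a description across genes, which are not independent. No pair agreed within sampling noise (chi-square per degree of freedom, 16.9 to 94.1). Libraries 2 and 3 stood apart from the other 4 on the first principal component, which held 46.1% of the variance. Summary measures of spread are given with and without them. The labels call the libraries biological replicates but do not say which cultures shared an animal, so the spread given here is that between these 6 cultures.

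Of 55291 gene symbols, 14969 reached at least 1 CPM in every library, and this threshold is called detected below. They included 12524 nuclear protein-coding genes, which is 57.4% of the 21819 in the table, 908 long noncoding RNAs and 16 mitochondrially encoded genes. The median detected coding gene stood at 4.96 CPM per kb. The upper tail was narrow, since 4015 coding genes passed 10 CPM per kb and 500 passed 100 CPM per kb. The 834 most abundant genes held 50% of all counts.

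The most abundant nuclear coding transcripts per kb came from calcium signalling, protein turnover and the respiratory chain. Calm2, which encodes calmodulin, the calcium sensor that activates CaM kinases, had a mean of 5252 ± 3097 CPM per kb (SD, n = 6). Cst3, a secreted inhibitor of cysteine proteases, reached 3525 ± 519 CPM per kb and was much steadier. Ubb, which encodes ubiquitin, had 2779 ± 1736 CPM per kb. The other genes among the 20 highest included Selenow, Tmsb4x, Dbi, Mt1, Cpe, Actb, Rplp1, Fth1 and Ywhae, and 6 nuclear subunits of respiratory complexes (Cox6a1, Cox6b1, Cox8a, Ndufa2, Uqcr10 and Uqcr11) between 979 and 1277 CPM per kb. Calm2, Ubb and Ywhae were each highest in libraries 2 and 3. Calm2 was at 14270 and 12690 CPM there and at 4269 to 5959 CPM in the other 4 libraries. Without libraries 2 and 3 the SD of log2 CPM fell from 0.79 to 0.22 for Calm2, from 0.83 to 0.22 for Ubb and from 0.62 to 0.23 for Ywhae.

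The predicted gene Gm10800 headed this ranking at 6882 ± 7053 CPM per kb, but its 6 values ran from 548 to 13420 CPM. Of its transcript's 31-base words, 25.2% also occur in Gm10801 and 17.3% in Gm10722, both of which varied with it, so its counts cannot be assigned to 1 locus with confidence. Malat1, a nuclear noncoding RNA, was the most abundant long noncoding RNA at 11581 ± 2270 CPM. Meg3, an imprinted noncoding RNA of neurons, followed at 1437 ± 259 CPM. The mitochondrially encoded coding genes spanned a wide range within 1 genome. mt-Co1, a catalytic subunit of cytochrome c oxidase, stood at 7730 ± 2456 CPM per kb, whereas mt-Co2, its partner subunit, stood at 39.1 ± 8.49 CPM per kb and mt-Co3 at 138 ± 37.8 CPM per kb. How reads that match more than 1 place were counted is not given in the sources used here.

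Markers of 23 cell types were then read, 212 genes in all, of which 153 were detected. Neuronal and astrocytic markers had the highest list medians, followed by those of granule cells, microglia, myelin and interneurons. Every marker of endothelial cells, choroid plexus, blood, and cholinergic and aminergic neurons lay under 1 CPM per kb. In bulk tissue, fewer cells of a type and less RNA per cell cannot be told apart, which holds for every list below.

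**Figure D1:**
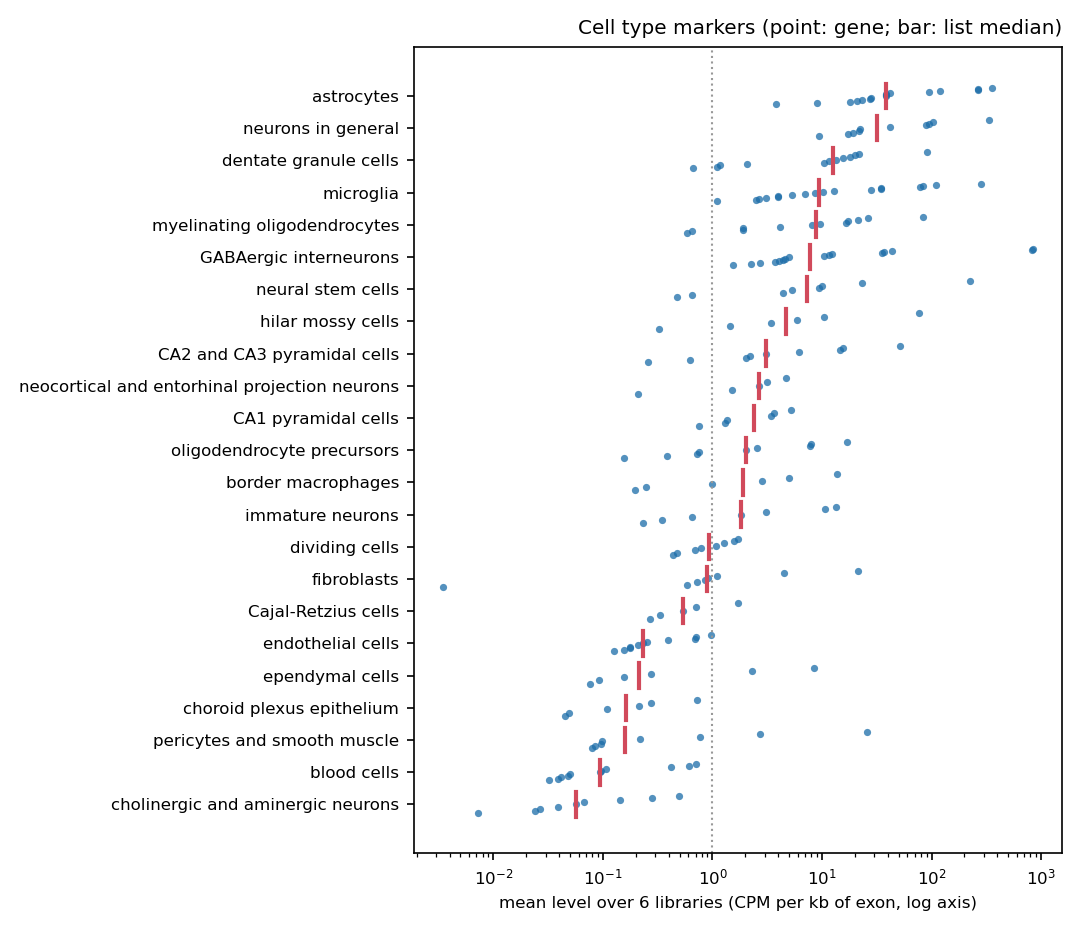
Mean level of each marker gene over the 6 wildtype libraries in CPM per kb of exon (log axis), by cell type list, with the list median as a bar and 1 CPM per kb as a dotted line. Medians fall from 38.5 for astrocytes to 0.0569 for cholinergic and aminergic neurons, and all 11 endothelial markers lie under 1 CPM per kb.

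All 10 general neuronal markers were detected, and their median was the second highest of the cell type lists, after that of astrocytes. Snap25, a core protein of vesicle fusion, had 333 ± 130 CPM per kb and was highest in library 3 at 3654 CPM. Map2, the microtubule protein of dendrites, was steadier, between 611 and 770 CPM.

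The dissected tissue expressed nearly all markers of granule cells, as it did those of several other cell types given below. Of 12 granule cell markers, 11 were detected, with a list median of 12.5 CPM per kb. Prox1, the transcription factor that specifies granule cells, was at 101 CPM in the lowest library, 165 CPM at the median and 196 CPM in the highest, a mean of 18.0 ± 4.56 CPM per kb. Calb1, the calcium buffer of mature granule cells, had 90.4 ± 37.9 CPM per kb. Its value was 127 CPM in library 1 and 405 to 646 CPM in the other 5. C1ql2, a mossy fibre synaptic organizer, was instead highest in library 1, with 61.1 CPM there and 13.1 to 28.0 CPM in the others.

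Dsp, a desmosomal protein that within the hippocampus marks granule cells, was the member that separated the cultures most clearly. It was at 15.9, 3.30, 17.9, 1.47, 13.5 and 15.1 CPM in libraries 1 to 6. Libraries 2 and 4 were low and the other 4 lay close together. Tdo2, a tryptophan-degrading enzyme enriched in granule cells, was lowest in library 4 at 2.88 CPM, while library 2 at 5.77 CPM did not differ from library 6 at 5.74 CPM, and the other 3 had 8.96 to 15.1 CPM. The plasticity-related kinase gene Plk5 was the lowest member at 0.666 ± 0.286 CPM per kb.

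Markers of the neighbouring principal cells were present at lower levels. Hilar mossy cell markers had a median of 4.65 CPM per kb (5 of 6 detected). Calb2, which encodes calretinin and is found in mouse mossy cells and in some interneurons, ran from 36.7 CPM in library 1 to 275 CPM in library 4. Drd2, the dopamine receptor that labels mossy cells, was not detected by the threshold at 0.323 ± 0.0966 CPM per kb. CA1 markers had a median of 2.38 CPM per kb (6 of 6 detected) and were headed by Mpped1 at 5.25 ± 1.84 CPM per kb. Wfs1, a protein of the endoplasmic reticulum that marks CA1 neurons, was at 20.1 and 25.7 CPM in libraries 2 and 4 and at 5.46 to 10.5 CPM in the others. It was the single one of the 6 with that order, and Mpped1 in library 2, at 16.4 CPM, was the second lowest. CA2 and CA3 markers had a median of 3.07 CPM per kb (7 of 9 detected), with Pcp4 highest at 51.8 ± 9.26 CPM per kb. Amigo2, an adhesion protein of CA2 and CA3 neurons, had its highest values in libraries 2 and 4, at 18.8 and 15.0 CPM, against 3.68 to 8.90 CPM, as did Necab2, while Iyd was lowest in both and the other 6 did not separate them.

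Cortical projection neuron markers were low, with a median of 2.65 CPM per kb (4 of 5 detected). Fezf2, a transcription factor of deep-layer neurons, led them at 4.66 ± 0.620 CPM per kb. Of the 9 cholinergic and aminergic markers, whose cell bodies lie outside the hippocampus, 1 was detected. This was Tph2, an enzyme of serotonin synthesis, at 0.491 ± 0.0765 CPM per kb. Slc18a3, the vesicular acetylcholine transporter, had 2 counts over all 6 libraries.

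Interneurons were represented by all 16 of their markers, with a median of 7.72 CPM per kb. Npy and Sst, the neuropeptides of hilar interneurons, had 836 ± 273 and 822 ± 399 CPM per kb. Npy had 293 CPM in the lowest library and 696 CPM in the highest, library 1, whereas Sst had its lowest value in library 1 at 300 CPM and its highest in library 2 at 942 CPM. Gad1, the main GABA-synthesizing enzyme, had 43.8 ± 13.3 CPM per kb, and Gad2 had 35.2 ± 6.01 CPM per kb. Pvalb, the calcium buffer of fast-spiking basket cells, was detected in every library, between 21.4 and 64.1 CPM. Nos1, which makes nitric oxide, was the lowest of the 16 at 1.55 ± 0.581 CPM per kb. Markers of Cajal-Retzius cells, the early-born Reln-secreting neurons of the molecular layer, had a median of 0.542 CPM per kb, and 4 of the 5 were detected.

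Astrocytes gave the highest list median. All 16 markers were detected, and the list median was 38.5 CPM per kb. Gfap, the intermediate filament of astrocytes, had 360 ± 52.2 CPM per kb, with 1190 CPM in the lowest library, 1617 CPM at the median and 1733 CPM in the highest. Aldoc, a glycolytic enzyme, followed at 266 ± 115 CPM per kb, and Slc1a3, a glutamate transporter, at 263 ± 47.5 CPM per kb. Fgfr3 was the lowest at 3.80 ± 0.934 CPM per kb.

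Reactive astrocyte genes were all detected (10 of 10, median 12.2 CPM per kb). Vim, a filament that rises in reactive glia, had 151 ± 50.5 CPM per kb, and Serpina3n, a secreted protease inhibitor, had 88.7 ± 30.5 CPM per kb. Lcn2, an iron-binding protein of inflamed tissue, was at 179, 102, 87.7, 227, 28.4 and 43.7 CPM in libraries 1 to 6. Libraries 5 and 6 were thus lowest for Lcn2, and they were also lowest for Timp1 at 9.66 and 9.18 CPM against 22.6 to 36.2 CPM, and for the complement gene C3 at 10.2 and 11.9 CPM against 25.1 to 37.6 CPM.

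Microglial markers were complete, with 18 of 18 detected and a median of 9.44 CPM per kb. Ctss, a lysosomal protease, led them at 281 ± 73.0 CPM per kb. C1qb, a complement subunit, had 109 ± 58.2 CPM per kb. Library 4 was highest for C1qa, C1qb, C1qc, Tyrobp and Trem2. C1qa had 65.4 CPM there, 5.46 CPM in library 2 and 10.0 CPM in library 3. The homeostatic receptors P2ry12 at 10.3 ± 3.11 and Cx3cr1 at 8.60 ± 1.34 CPM per kb were detected in every culture, as was Tmem119 at 2.66 ± 0.654 CPM per kb. Among genes of activated microglia, 8 of 9 were detected. Apoe, a lipid carrier that astrocytes also make, had 582 ± 147 CPM per kb, Cd9 had 167 ± 30.0 CPM per kb and Spp1 had 109 ± 51.5 CPM per kb, while Itgax was the lowest at 0.0533 ± 0.0535 CPM per kb.

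All 12 myelin markers were detected, with a median of 8.87 CPM per kb. Cldn11, the tight junction protein of myelin, was at 63.5 and 87.9 CPM in libraries 5 and 6 and at 30.1 to 43.6 CPM in the others, a mean of 26.1 ± 12.1 CPM per kb. Mbp, the myelin basic protein, was likewise highest in libraries 5 and 6, at 196 and 270 CPM against 55.8 to 150 CPM in the other 4. Mag, a myelin adhesion protein, was at 13.1 and 20.1 CPM in the same libraries and at 2.37 to 4.43 CPM in the rest, so the 2 sets of values did not overlap. Oligodendrocyte precursor markers had a lower median of 2.03 CPM per kb (7 of 9 detected). They were headed by Olig1 at 16.8 ± 4.89 CPM per kb, and the precursor receptor Pdgfra had 2.55 ± 0.486 CPM per kb.

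Vascular markers were low. All 11 endothelial markers lay under 1 CPM per kb, and 3 of them were detected. Emcn, a surface sialomucin of vessels, was the highest at 0.964 ± 0.238 CPM per kb, and Cldn5, the tight junction protein of brain endothelium, had 0.388 ± 0.165 CPM per kb. Of 8 pericyte and smooth muscle markers, 6 were under 1 CPM per kb. The exceptions were Rgs5, a regulator of G protein signalling, at 25.9 ± 8.40 CPM per kb and Vtn, a plasma and matrix protein, at 2.73 ± 1.54 CPM per kb, while Pdgfrb, the receptor that defines pericytes, had 0.763 ± 0.301 CPM per kb. None of the 11 blood cell markers was detected, and all lay under 1 CPM per kb. Hbb-bs, a haemoglobin chain, had 0.713 ± 0.151 CPM per kb, and the granulocyte gene S100a9 had 3 counts over all libraries. The level that 3 counts stand for was 0.100 to 0.158 CPM, depending on the library, and this limit covers counting error only.

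Markers of cells at the brain's borders had low list medians, though single members were higher. Fibroblast markers had a median of 0.888 CPM per kb (6 of 8 detected), with Serpinf1 the highest at a mean of 21.5 CPM per kb. Dcn, a matrix proteoglycan of meningeal fibroblasts, was at 33.0 and 57.3 CPM in libraries 2 and 4 and at 13.1 to 23.5 CPM in the others. Border macrophage markers had a median of 1.90 CPM per kb (4 of 6 detected), with Pf4 at 13.6 ± 2.54 CPM per kb. Choroid plexus markers had a median of 0.161 CPM per kb (1 of 6 detected), and Ttr, the thyroid hormone carrier that the choroid plexus makes in quantity, had 0.721 ± 0.377 CPM per kb. Ependymal markers had a median of 0.214 CPM per kb (3 of 6 detected), with Dynlrb2 the highest at a mean of 8.41 CPM per kb.

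Of the lists for stages of neurogenesis, those of dividing cells and immature neurons had low medians. Markers of dividing cells had a median of 0.930 CPM per kb (6 of 8 detected), with Top2a, a topoisomerase of dividing cells, at 1.71 ± 0.452 and Mki67 at 1.29 ± 0.261 CPM per kb. Immature neuron markers had a median of 1.84 CPM per kb (4 of 7 detected). They were headed by Sox4 at 13.3 ± 1.37 and Sox11 at 10.8 ± 2.07 CPM per kb. Dcx, the microtubule protein of young neurons, had 3.07 ± 0.546 CPM per kb. Eomes, a factor of intermediate progenitors, was at 3.16 and 2.84 CPM in libraries 1 and 5 and at 0.268 to 1.04 CPM in the others. Of the 8 neural stem cell markers, several of which astrocytes also express, 6 were detected, with a higher list median of 7.33 CPM per kb. Thrsp, a lipogenic factor of quiescent stem cells, was highest by far at 224 ± 104 CPM per kb, followed by Sox2 at 23.0 ± 7.08 CPM per kb.

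All 11 forebrain factors were detected, with a median of 13.8 CPM per kb. Zbtb20, a repressor that sets hippocampal identity, had 38.9 ± 8.19 CPM per kb, and Tcf4 had 34.5 ± 6.68 CPM per kb. Emx1 was the lowest at 3.58 ± 1.20 CPM per kb.

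Receptor, channel and synaptic gene families were ordered by their level per kb within each library. The 25 families held 111 genes, of which 97 were detected. In 18 families the same member was highest in all 6 libraries. Of 86 pairs of neighbours in these orders, 50 kept their order in 6 of 6 libraries. For each of these 50 the two-sided exact sign-flip permutation test gave p = 0.03125, the smallest it can give, and a Benjamini-Hochberg adjusted p of 0.0538 over the 86 pairs. No pair therefore passed an adjusted threshold of 0.05, and the orders are given as counts of libraries.

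Among AMPA receptor subunits, which carry fast excitation, Gria2 stood at 94.4 ± 15.9 CPM per kb and Gria1 at 73.6 ± 7.85 CPM per kb. Gria2, whose edited form keeps the channel closed to calcium, exceeded Gria1 in 6 of 6 libraries. Gria3 at 19.3 ± 2.51 and Gria4 at 7.21 ± 1.90 CPM per kb followed, in the same order in every library. Of 12 auxiliary subunits 11 were detected, headed by the cornichons Cnih2 at 26.0 ± 10.7 and Cnih3 at 14.6 ± 4.80 CPM per kb. Their neighbours changed places between libraries in all but 2 of the 11 steps. Cacng2, which encodes the prototype of these trafficking subunits, had 6.94 ± 2.81 CPM per kb, and Cacng7 was the lowest at 0.146 ± 0.189 CPM per kb.

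Among NMDA receptor subunits, the one that predominates in mature forebrain was highest. Grin2a at 22.2 ± 6.11 exceeded Grin2b at 8.75 ± 2.72 CPM per kb in 6 of 6 libraries. Grin1, the subunit that every NMDA receptor needs, had 1.52 ± 0.620 CPM per kb and was not separated from Grin3a at 1.68 ± 0.223 CPM per kb (higher in 4 of 6). This order hung on the length used. The mean log2 ratio of Grin3a to Grin1 was 0.24 with all exons. It was -0.23 with the length of the longest transcript and -0.20 with exons of protein-coding transcripts. In library 2 Grin1 was at 7.49 CPM and in library 6 at 21.7 CPM. The GC content of the longest Grin1 transcript is 59.4% and that of Grin2a 44.8%, and its part in their levels was not tested.

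Kainate subunits were lower and closer together, from Grik2 at 6.64 ± 0.925 to Grik3 at 1.06 ± 0.345 CPM per kb. Grm5 was the main metabotropic receptor at 41.5 ± 10.5 CPM per kb, ahead of Grm7 at 7.70 ± 1.04 CPM per kb in 6 of 6 libraries. Grm6, the receptor of retinal bipolar cells, had 3 counts in all. Among glutamate uptake transporters, the astrocytic Slc1a3 and Slc1a2 had 263 ± 47.5 and 120 ± 21.1 CPM per kb, and the neuronal transporter Slc1a1 had 8.38 ± 0.921 CPM per kb. Of the vesicular transporters, Slc17a7 had 9.37 ± 4.54 and Slc17a6 4.94 ± 1.06 CPM per kb, in that order in 5 of 6 libraries. Slc17a7 was at 22.3 and 27.9 CPM in libraries 2 and 3 and at 42.9 to 85.9 CPM in the others.

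**Figure D2:**
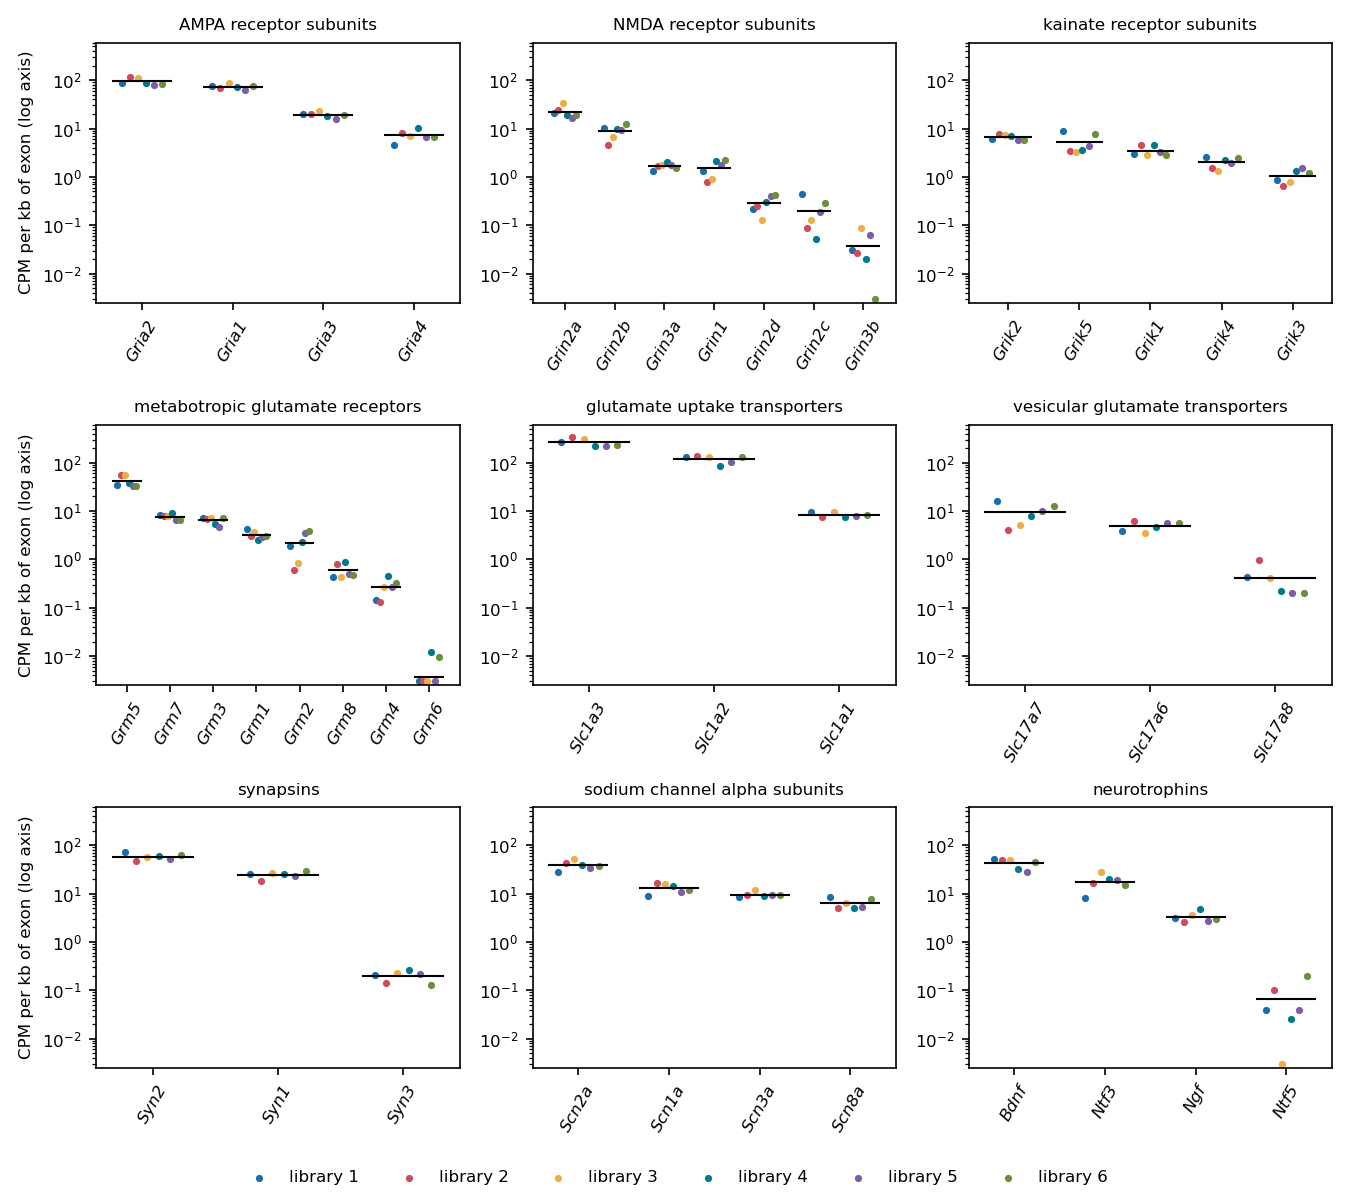
Level of each member of 9 families in CPM per kb of exon (log axis), with 1 point per wildtype library and the mean as a line. Values under 0.003, including 0, are drawn at 0.003. Gria2, Grin2a, Grik2, Grm5, Slc1a3, Slc17a7, Syn2, Scn2a and Bdnf have the highest mean of their families, and the library points of most leading members lie within a narrow band.

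GABA-A receptor alpha subunits were led by Gabra5 at 91.6 ± 33.0 CPM per kb, the extrasynaptic alpha subunit typical of hippocampus. Gabra4 at 34.5 ± 9.55 exceeded Gabra2 at 28.7 ± 9.60 CPM per kb in 5 of 6 libraries. Gabra6, the subunit of cerebellar granule cells, had 0.326 ± 0.295 CPM per kb. Gabrd, which forms tonic receptors with alpha4 in granule cells, had 2.32 ± 0.953 CPM per kb and was not separated from Gabrg1 (higher in 4 of 6). The mean log2 ratio of Gabrd to Gabrg1 was 0.33, and it was -0.31 with the length of the longest transcript.

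The potassium-chloride exporter Slc12a5, which makes GABA inhibitory in mature neurons, had 12.0 ± 1.78 CPM per kb. The importer Slc12a2 had 6.29 ± 0.886 CPM per kb and was lower than Slc12a5 in 6 of 6 libraries. The sodium channel Scn2a at 38.8 ± 8.03 led Scn1a at 12.9 ± 2.98, Scn3a at 9.49 ± 1.26 and Scn8a at 6.26 ± 1.39 CPM per kb, in this order in every library. The pacemaker channel genes Hcn2, Hcn3 and Hcn4 all lay under 0.3 CPM per kb. The calcium channels Cacna1e and Cacna1b, of R and N type, were close together at 6.44 ± 0.661 and 6.39 ± 0.930 CPM per kb. With other lengths they were not, since their mean log2 ratio rose from 0.02 to 0.74 (longest transcript) and 0.69 (exons of coding transcripts). Kcnq3 at 6.33 ± 0.951 and Kcnq5 at 6.28 ± 1.78 CPM per kb, potassium channels of the M current, were not separated (higher in 3 of 6).

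Among synaptic organizers, Nrxn2, a presynaptic adhesion receptor, was at 26.1, 3.92, 4.12, 8.50, 12.7 and 26.7 CPM in libraries 1 to 6. Libraries 2 and 3 lay below the other 4. Nlgn1, a postsynaptic partner of neurexins, had 536 and 472 CPM in libraries 2 and 3 against 161 to 250 CPM in the others, and Nlgn2 had 32.2 and 33.1 CPM against 44.8 to 60.1 CPM. The GC content of their longest transcripts is 62.4% for Nrxn2, 38.9% for Nlgn1 and 60.7% for Nlgn2. Nlgn3 was steady at 8.72 ± 0.665 CPM per kb.

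Camk2b at 33.4 ± 10.5 and Camk2a at 31.3 ± 10.5 CPM per kb, the kinase subunits of synaptic plasticity, were not separated (higher in 4 of 6). Their mean log2 ratio of 0.12 rose to 0.68 with the length of the longest transcript and to 0.79 with exons of coding transcripts. Syn2 at 57.6 ± 8.97 exceeded Syn1 at 24.5 ± 3.78 CPM per kb in 6 of 6 libraries. Dlg3 at 12.8 ± 3.26 CPM per kb led the postsynaptic scaffolds, while Dlg4, which encodes PSD-95, had 2.12 ± 0.455 CPM per kb. The APP family, whose members act in synapse adhesion and trophic signalling, was evenly expressed, with Aplp2 at 70.3 ± 12.0, Aplp1 at 65.9 ± 10.4 and App at 59.9 ± 10.2 CPM per kb. Neither step in that order held in all 6 libraries, and Aplp1 fell behind App with the other length definitions. Bdnf, the neurotrophin of mossy fibres, was at 176 CPM in the lowest library, 290 CPM at the median and 315 CPM in the highest, and its mean of 42.2 ± 9.69 CPM per kb exceeded that of Ntf3 at 17.7 ± 6.36 CPM per kb in 6 of 6 libraries. Its receptor Ntrk2 had 23.1 ± 4.03 CPM per kb, and Ngfr, the low-affinity neurotrophin receptor, lay under 0.1 CPM per kb.

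Activity and stress genes gave a mixed picture. Of 15 immediate early genes, which neurons switch on within minutes of firing, 10 were detected, with a median of 2.65 CPM per kb. Egr3, a transcription factor, was at 209 CPM in library 1 and at 27.7 to 57.4 CPM in the other 5. Fos had 9.86 ± 2.76 CPM per kb and was highest in library 4 at 34.9 CPM. Arc, a plasticity gene of dendrites, was at 4.99 and 6.69 CPM in libraries 1 and 4 and at 0.284 to 2.30 CPM in the others. Npas4 was the lowest at 0.162 ± 0.145 CPM per kb.

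All 15 neuropeptide and granin genes were detected (median 7.59 CPM per kb). Scg2 had 210 ± 37.9 CPM per kb, Chgb 152 ± 70.0 and Cck 89.7 ± 46.7 CPM per kb. All 9 hypoxia response genes were detected (median 12.5 CPM per kb), with Bnip3, a mitophagy receptor, at 150 ± 68.5 CPM per kb. All 8 stress response genes were detected (median 14.6 CPM per kb), with the chaperone Hspa5 at 118 ± 22.6 CPM per kb and the asparagine synthetase Asns at 61.1 ± 21.8 CPM per kb. Interferon response genes had a median of 2.09 CPM per kb (6 of 8 detected). Ifit3, an antiviral effector, ran from 25.0 CPM in library 1 to 72.6 CPM in library 6, and Rsad2 from 4.35 CPM in library 4 to 21.9 CPM in library 6.

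The spread between cultures was next measured across all genes. The common biological coefficient of variation, the square root of edgeR's common dispersion, was 28.0% over 16889 genes and 23.9% without libraries 2 and 3. Among the 7234 genes at a mean of at least 20 CPM, the SD of log2 CPM had a median of 0.29. Its median was 0.22 without libraries 2 and 3. In 2006 of these genes (27.7%) the highest library was over 2-fold above the lowest, and in 710 without libraries 2 and 3. A range over fewer libraries tends to be narrower whichever are left out, so this fall does not measure libraries 2 and 3 alone. For 5515 of the 7234 genes (76.2%) the highest or the lowest value was in library 2 or 3. Any pair of libraries holds an extreme for many genes by chance alone, and that share was not computed. Counting error was a small share of this, since genes above 100 CPM had a median coefficient of variation of 21.8%, against 1.55% from counting alone.

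The libraries differed along the GC content of the transcripts. Over 13558 coding genes at a mean of at least 1 CPM, split into 5 groups of equal size by GC content, libraries 2 and 3 stood 0.26 and 0.23 above the gene means on the log2 scale in the lowest group (30.9% to 43.5% GC). In the highest group (55.2% to 71.3% GC) they stood at -0.39 and -0.17. Library 6 had the reverse slope, from -0.17 to 0.27, and library 4 was nearly flat, from 0.05 to 0.08. The median level also fell from 6.30 CPM per kb in the lowest group to 2.61 CPM per kb in the highest. With the GC trend removed from each library, 1494 of 7233 genes at 20 CPM or more still ranged over 2-fold, against 1990 without that step on the same scale.

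**Figure D3:**
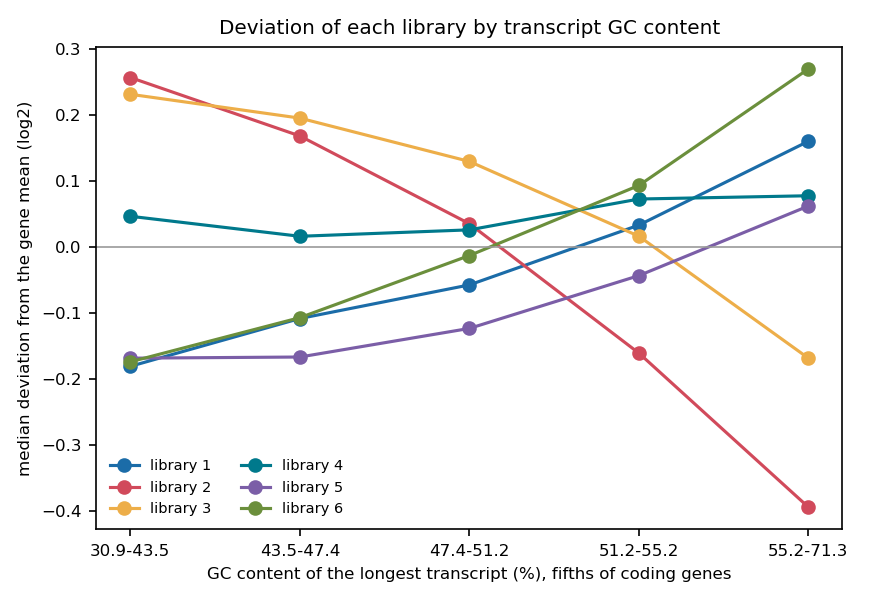
Median deviation of each wildtype library from the gene means (log2) in 5 equal groups of coding genes by the GC content of the longest transcript. Library 2 falls from 0.26 to -0.39 and library 6 rises from -0.17 to 0.27 across the groups.

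Gene lists were followed from culture to culture by a score, the mean over the list of each gene's log2 CPM minus its mean over the libraries. The SD of this score had a median of 0.34 over 32 lists, 0.29 without libraries 2 and 3 and 0.32 with the GC trend removed. Astrocytes had an SD of 0.13, and CA2 and CA3 markers and long noncoding RNAs had 0.14 each. Which of these 3 was smallest changed with the settings, since long noncoding RNAs had 0.09 and astrocytes 0.11 without libraries 2 and 3, and CA2 and CA3 markers had 0.11 and astrocytes 0.12 with the GC trend removed. Cajal-Retzius markers had the largest, 0.54, ahead of immediate early genes at 0.51, myelin at 0.48, interferon response at 0.47 and CA1 at 0.46. The Cajal-Retzius markers were low, with means from 0.894 CPM (Lhx5) to 9.25 CPM (Nhlh2). Low genes varied more in general, with a median SD of log2 CPM of 0.48 at 1 to 5 CPM and 0.28 at 20 to 100 CPM. Without libraries 2 and 3, immediate early genes had 0.39 and CA1 0.19. With the GC trend removed, myelin had the largest SD, 0.54, ahead of Cajal-Retzius markers at 0.51. The CA1 value rested on library 3, and it was 0.23 without that library. The microglial SD of 0.22 fell to 0.06 without library 4.

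**Figure D4:**
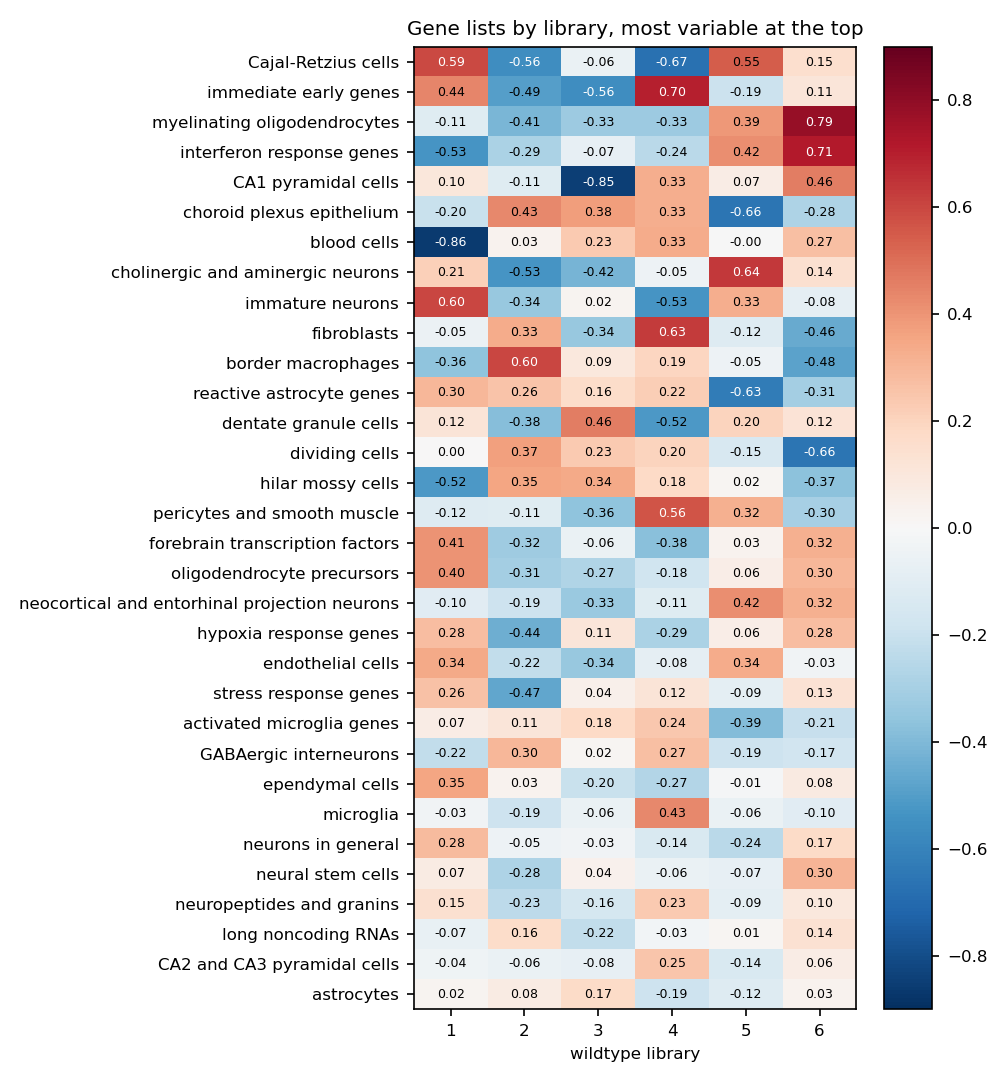
Score of each gene list (mean log2 CPM minus the mean over libraries) in the 6 wildtype libraries, red above and blue below the mean, with the most variable list at the top. Granule cell scores are lowest in libraries 2 and 4 (-0.38 and -0.52), and myelin scores are highest in libraries 5 and 6 (0.39 and 0.79).

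Libraries 2 and 4, a pair chosen after the values were seen, stood together for part of the markers of several lists. The share of all genes that set both apart from the other 4 was not counted. The marker counts for this pair are therefore descriptions and no result about a cell type. Of the 12 granule cell markers, 7 (Stxbp6, Prox1, C1ql2, Trpc6, Dsp, Glis3 and Plk5) were lower in both than in each of the other 4 libraries, and 5 were not. Calb1, Npy1r, Rfx3, C1ql3 and Tdo2 were the 5, with Calb1 at 603 CPM in library 4, the second highest of the 6. Granule cell scores, which weigh each gene equally, were -0.38 and -0.52 in libraries 2 and 4 and 0.12 to 0.46 in the other 4. The summed level of the 12 markers, in which Calb1 weighs most, gave another order, with 184 and 211 CPM per kb in libraries 2 and 4, 158 in library 1 and 203.6 to 277 CPM per kb in libraries 3, 5 and 6. With the GC trend removed, the granule cell scores of libraries 2 and 4 were -0.40 and -0.56, and those of the other 4 were 0.13 to 0.37.

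Of the 16 interneuron markers, 9 were higher in libraries 2 and 4 than in each other library, Sst, Gad1, Gad2 and Vip among them, and 7 were not. Interneuron scores were 0.30 and 0.27 there against -0.22 to 0.02. Of the 8 fibroblast markers, 3 (Dcn, Col1a1 and Col3a1) were higher in both. As for granule cells, the share of all genes with such an order was not counted, so these marker counts are descriptions only. Fibroblast scores were 0.33 and 0.63 against -0.46 to -0.05, whereas the summed fibroblast level of library 2, 28.4 CPM per kb, lay below those of libraries 1 and 3 at 30.6 and 35.0. The same 2 libraries had the highest values of Ptgds, a prostaglandin synthase made in quantity by the meninges, at 426 and 1451 CPM against 53.9 to 125 CPM. They also had the highest values of Trhr, the receptor for thyrotropin-releasing hormone, at 50.1 and 49.4 CPM against 3.26 to 16.9 CPM. Their depths were 25609238 and 29713323 counts, the highest of the 6. Whether the cut or the cultures differed was not tested.

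Library 1 stood at one end for some granule cell and peptide genes. It was highest for 4 and lowest for 3 of the 12 granule cell markers, and highest for 5 and lowest for 5 of the 15 neuropeptide and granin genes. The neuropeptide score was 0.15 in library 1 and 0.23 in library 4, the highest. It had the lowest Calb1, as given above, and the highest C1ql2, Egr3 and Npy. It also had the highest Chgb, at 772 CPM against 240 to 427 CPM, the highest Penk, which encodes enkephalin, at 24.2 CPM against 6.51 to 15.5 CPM, and the highest Gal, which encodes galanin, at 52.4 CPM against 12.3 to 32.5 CPM. Vgf, a secreted activity-regulated peptide precursor, was at 41.5 CPM there and at 4.73 to 25.6 CPM in the others. The score of immature neuron markers was likewise highest there, at 0.60. These genes were picked after their values were seen.

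Libraries 5 and 6 had the highest myelin scores (0.39 and 0.79 against -0.41 to -0.11) and the highest interferon response scores (0.42 and 0.71 against -0.53 to -0.07). Their reactive astrocyte scores were the lowest, at -0.63 and -0.31 against 0.16 to 0.30. Those of activated microglia genes were lowest there too, at -0.39 and -0.21 against 0.07 to 0.24, but the summed level of that list was lower in library 2 (772 CPM per kb) and library 1 (800.3) than in library 6 (848). The summed interferon response level of library 3 (65.5 CPM per kb) exceeded that of library 5 (63.2). Of the single genes, 8 of 12 myelin and 6 of 8 interferon response genes were higher, and 5 of 10 reactive astrocyte genes lower, in both libraries than in each of the other 4. This pair too was picked after the values were seen, and it had the highest correlation of all pairs (Pearson's r of 0.984). The share of all genes that set it apart was not counted, so these counts are descriptions only. Both libraries were shallower than libraries 2, 3 and 4, with 16686909 and 18011431 counts. With the GC trend removed, the reactive astrocyte scores of libraries 5 and 6 were -0.53 and -0.30 and the interferon scores 0.51 and 0.70.

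The genes with the largest spread at 20 CPM or more were those of the sex chromosomes (Kdm5d, Eif2s3y, Ddx3y and Xist), followed by Ptgds with an SD of 1.84 on the log2 scale. Lars2, a mitochondrial leucyl-tRNA synthetase, came next at 1.77, with 13.2 and 15.9 CPM in libraries 2 and 3 and 64.4 to 204 CPM in the others. Without libraries 2 and 3 the SD of Lars2 was 0.74 and that of Gm47033 fell from 1.76 to 0.88. The noncoding RNA Gm47033 had the opposite order, with 101 and 75.9 CPM in libraries 2 and 3 and 6.05 to 22.9 CPM in the others. At the other end, Btaf1, a regulator of TATA-binding protein, stayed between 24.4 and 26.0 CPM in all 6 libraries. Prpf4b, a splicing kinase, stayed between 150 and 161 CPM, and Eea1, an endosomal tether, between 97.9 and 106 CPM. The other 7 steadiest genes were Plekhm3, Kmt5b, Desi2, Alkbh1, Golph3, Stag2 and Zfp329, each with a highest value at most 1.12 times its lowest.

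**Figure D5:**
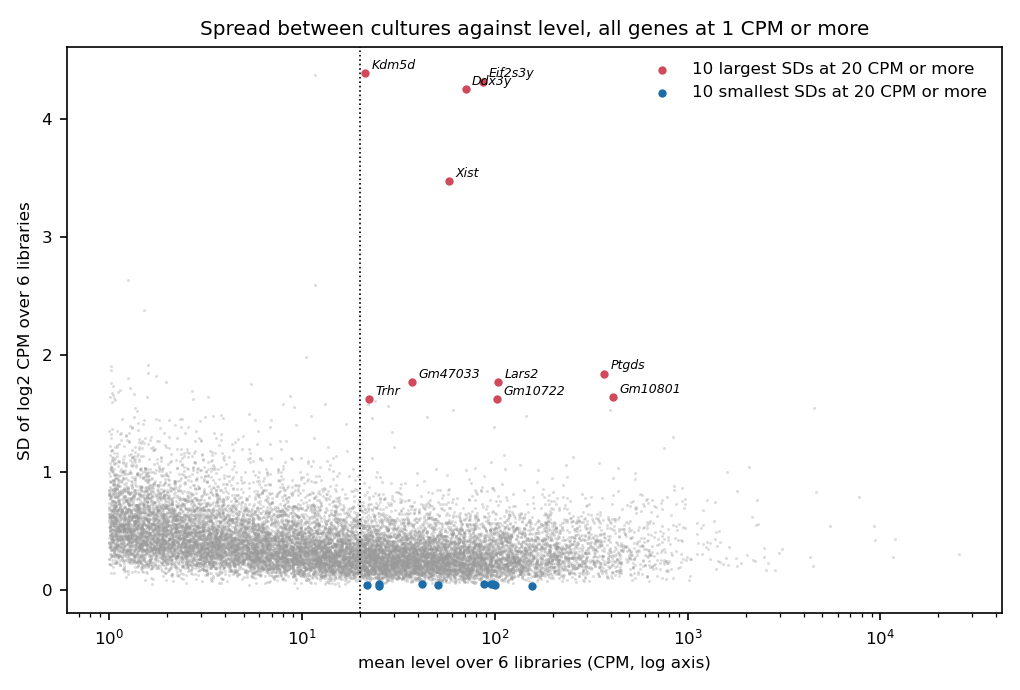
SD of log2 CPM over the 6 wildtype libraries against the mean level in CPM (log axis), with 1 point per gene at 1 CPM or more. The 10 genes with the largest SD at 20 CPM or more (red, named) include 4 genes of the sex chromosomes with SDs above 3, and the 10 steadiest (blue) lie under 0.06.

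The columns of the count tables end in f for libraries 1 to 3 and in m for libraries 4 to 6. The labels do not explain these letters. Xist, the noncoding RNA that silences an X chromosome in females, was at 137, 122 and 84.3 CPM in the f libraries and at 1.07, 1.73 and 1.25 CPM in the m libraries. The Y-linked translation factor gene Eif2s3y was at 0.352 to 1.02 CPM in f and at 152 to 209 CPM in m. For both genes the 2 sets of libraries were far apart.

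edgeR's quasi-likelihood test of f against m called 7 of 20460 genes at an adjusted p under 0.05 (0.0342%), 1 higher in f (0.00489%) and 6 higher in m (0.0293%). Those higher in m were the Y-linked Ddx3y, Eif2s3y, Kdm5d, Uty and Gm29650, and a single autosomal gene, Ly6h on chromosome 15. Ly6h, a surface protein that modulates nicotinic receptors, was at 5.19, 5.64 and 8.52 CPM in f and at 47.1, 42.6 and 29.0 CPM in m, without overlap. Its log2 difference of f minus m was -2.62 ± 0.28 (SE), with an edgeR adjusted p of 0.00932. It did not pass without library 2 (adjusted p = 0.113 in edgeR) or without library 5 (adjusted p = 0.0972), and its adjusted p ran from 8.6e-19 to 0.113 over 12 alternatives. Of the marker and family genes, 381 were tested and edgeR called 0, with 70 (18.4%) at an unadjusted p under 0.05, while DESeq2 called 15. Over all genes, 2321 of 20460 (11.3%) had an unadjusted p under 0.05 in edgeR, and DESeq2 called 206. The count of called genes hung on single libraries, since it was 1367 without library 1 and 23 without libraries 2 and 3. The letter cannot be told apart from any other property, such as preparation day, that libraries 1 to 3 shared.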

How the data were processed

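RNA was measured in 6 wildtype dentate gyrus isolates, 1 per library, from 10 ng of cDNA amplified over 12 cycles with 10 further cycles for the library, and reads were 151 bases long in pairs, per the labels' protocols. The deposited values were raw read counts per gene symbol, for which the submitters' processing notes name the mm10 build (GRCm38) and, as the authors' tools, featureCounts 2.0.1, STAR 2.7.8a and cutadapt 3.5. How strand, PCR duplicates and reads with several matches were treated is not given in the sources used here. Overlapping and antisense genes could therefore share reads, and 107 symbols that stand for more than 1 locus were kept as 1 row. No molecular identifiers were recorded, so floors cover counting error only.

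Counts were scaled with TMM in edgeR 4.0.16 (R 4.3.3) and divided by the union of exons in the deposited annotation, GENCODE vM25, in kb. Wildtype libraries alone entered each fit. Family orders used log2 of CPM per kb with a pseudocount of 0.1 CPM, and list scores used log2 CPM with a prior count of 2 for genes at a mean of 0.5 CPM or more. The f against m comparison used edgeR's quasi-likelihood test with genes kept by filterByExpr and Benjamini-Hochberg adjustment, with DESeq2 1.42.0 as an alternative, and was tested on simulated data. GC content was that of each gene's longest transcript in an earlier GENCODE release of the same build, matched by gene identifier. That transcript can differ from the longest in vM25. The GC trend was removed by lowess with a span of 0.3.

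The libraries, gene lists and families were chosen with earlier results of these data known. The genes named are the 20 highest per kb, the 5 highest noncoding RNAs, the top 3 and the lowest member of each list, all family members, the 10 steadiest and 10 most variable at 20 CPM, and those called between f and m, of which the text gives a selection, and some are not reported here. Other list members, and the mitochondrially encoded genes, were named after their values were seen. Alternatives were another scaling, each library left out, libraries 2 and 3 left out, mitochondrial or noncoding genes left out, other filters, prior counts and pseudocounts, and other gene lengths.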

Additional observations from a re-analysis of the deposited data

Results flagged for a closer look

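Of 106 values or summed levels examined over the 6 libraries, 7 had 1 library separated from the others by a gap above the 95% critical value of Dixon's test for 6 samples. Chance flags about 1 in 20, but 6 of the 7 were genes chosen for a large or small spread in these same libraries, so that rate does not apply to them. Ptgds, a prostaglandin synthase, had 1451 CPM in library 4, and the next library had 426 CPM. Atp6v0c, a subunit of the vesicular proton pump, had 291 CPM in library 4 against 103 CPM in the next. Egr3, an immediate early gene, had 209 CPM in library 1 and the next had 57.4 CPM. The summed level of the 9 hypoxia response genes was 380 CPM per kb in library 3 and 260 CPM per kb in the next library. The predicted genes Gm10801 and Gm10722, which share sequence with Gm10800, had 1269.98 and 325 CPM in library 5, against 482 and 125 CPM in the next. Desi2, a peptidase gene among the steadiest of all, had 39.0 CPM in library 6 and at least 42.0 CPM in the other 5.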

How the results depend on the processing

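The number of detected genes stayed between 14962 and 15268 when 1 library was left out, and between 12537 and 16889 under the other settings. The common biological coefficient of variation ranged from 26.8% to 29.2% with 1 library left out, and from 23.9% without libraries 2 and 3 to 38.1% with no filter on low counts. The number of family neighbours in the same order in every library ranged from 47 to 58, and the median SD of list scores from 0.29 to 0.35. The count of genes called between f and m depended most on the settings. It was 5 to 1367 with 1 library left out (1367 without library 1), 23 without libraries 2 and 3, 206 with DESeq2 and 451 with no filter beyond 1 count, and the cause was not tested. Of 4667 values of single genes recomputed under the alternatives, 36 moved by more than the spread between libraries, in 15 genes, and none reversed. Of 384 list spreads, 15 moved. The GC trend was removed as an alternative chosen after seeing the data, and with it the spread of precursor markers fell to 0.20 and that of stress genes to 0.17, while that of long noncoding RNAs rose from 0.14 to 0.21, that of cholinergic and aminergic markers from 0.43 to 0.50 and that of myelin from 0.48 to 0.54. No paired analysis was possible because only 1 group, the wildtype cultures, is described and no comparison between genotypes was made. At these depths, 3 counts stood for 0.100 to 0.158 CPM, so absence below that level cannot be shown.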

Other observations

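Hypoxia response genes included Car9, a carbonic anhydrase at the cell surface, at 17.5 CPM per kb, and Adm, which encodes the vessel-dilating peptide adrenomedullin, at 24.2 CPM per kb. Vegfa, the main growth factor of vessels, was at 8.00 CPM per kb, while its receptors Flt1 and Kdr were at 0.705 and 0.209 CPM per kb. The hypoxia score was lowest in libraries 2 and 4, at -0.44 and -0.29, and was 0.06 to 0.28 in the other 4. The summed level of the list, in which Bnip3 weighs most, had another order, from 189 CPM per kb in library 1 to 380 in library 3, with 260 and 229 CPM per kb in libraries 2 and 4.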
